A study of Mus musculus with 4 samples.

Results

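Open chromatin regions (peaks) whose nearest edge lay over 100 kb from every annotated transcription start interval of chromosomes 1 to 19 and X, called distal peaks here, were examined in bone marrow progenitors. They numbered 10607 of the 174339 peaks in the deposited matrix, and of 174235 on those chromosomes. The intervals that accompany the genes in the matrix span the annotated start sites and not the gene bodies, and 61.1% of them are 1 base long, so the distal peaks are far from starts and not always from genes. Of the 10607, 4745 (44.7%) lay inside a protein-coding gene body, 338 (3.19%) inside another gene body only, and 5524 (52.1%) outside every gene body (GRCm38, GENCODE M21). The median distance to the nearest start interval was 147 kb, 280 distal peaks were over 500 kb away, and the farthest was at 1447 kb. They were set against 37258 start-proximal peaks, which lay within 1 kb of a start interval.

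The data come from nuclei of Lin-cKit+ hematopoietic stem and progenitor cells (HSPCs) of 8-week-old male C57BL/6 mice, with RNA and accessible chromatin read from the same nucleus. Of 2 samples, each a pool of 5 mice, Ctrl was left unligated and Lig carried ligatures around teeth for 14 days to induce periodontitis. The matrix holds 2 libraries, told apart by a barcode suffix that no label ties to Ctrl or Lig, so they are called libraries 1 and 2, no comparison of Lig with Ctrl was made, and each library counts as 1 sample with no test between conditions.

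Distal regulatory elements such as enhancers are stretches of DNA that bind transcription factors and act on promoters across long distances, often from within the introns of other genes. Blood formation relies on them, because factors such as GATA1 in red cells, C/EBP proteins in granulocytes and EBF1 in B cells open different sets of elements in each lineage. Promoters of widely used genes lie in CpG-rich DNA that is open in most cells.

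After filtering for at least 200 genes and 1000 to 50000 peak counts, 13619 nuclei remained, 5905 in library 1 and 7714 in library 2, and 72 barcode sequences occurred in both. Clustering on RNA alone gave 17 clusters, of which 12 could be named from marker genes, and 7 of these held at least 100 nuclei in each library. The unnamed clusters, which were left out, included the largest, of 2396 and 2255 nuclei. These 7 classes held 6469 nuclei (47.5%) and are named by their resemblance as HSC-like (stem), LMPP-like (lymphoid-primed multipotent), GMP-like (granulocyte and monocyte), NeuP-like (neutrophil), EryP-like (erythroid), MkP-like (megakaryocyte) and pro-B-like. Peaks took no part in forming the classes. Below, other nuclei, other classes and elsewhere mean the rest of these 7 classes. Nuclei outside the 7 had no part in the calls. Summed peak counts per class and library ran from 1514829 (LMPP-like, library 2) to 19890340 (HSC-like, library 2).

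A peak was called lineage-restricted when the same class was highest in both libraries and exceeded the mean of the other 6 classes at least 4-fold in each, on counts per 1000000 peak counts (CPM) with 0.5 added. At least 20 pairs of counts per library, summed over the 7 classes, were required, since both ends of a fragment are usually counted. A call can thus rest on fewer pairs in its own class. Distal peaks were called more often than start-proximal peaks. Of 8073 distal peaks with enough counts, 521 (6.45%, 95% Clopper-Pearson interval 5.93 to 7.01) were called, against 1041 of 34921 start-proximal peaks (2.98%, 2.81 to 3.16) and 4.75% of all 152866 peaks tested. The other 2534 distal peaks had too few counts, and with no minimum 5.20% of all 10607 distal peaks and 2.85% of start-proximal peaks were called. With every large enough cluster as its own class (12), unnamed ones included, 4.35% of distal and 2.21% of start-proximal peaks were called. These intervals cover counting error only and take peaks as independent, which neighbouring peaks are not.

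A second measure needed no threshold on the ratio and was taken over the same tested peaks, with at least 20 count pairs per library. The class with the highest level was chosen in one library and its level was read in the other, as the ratio of summed CPM in that class to the mean of the other classes, called the held-out fold. Distal peaks gave 2.12 when the class came from library 1 and 2.21 when it came from library 2, with 2.16 over both (2.14 with no minimum of count pairs). Start-proximal peaks gave 1.37 and 1.43, lower than distal peaks in both directions. The 2 directions swap the roles of the same libraries and peaks, so their difference is not a spread between replicates. The highest class was the same in both libraries for 46.2% of distal and 47.7% of start-proximal peaks tested.

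Lineage restriction went up from the starts outwards over the first 200 kb. The share called was 4.56% from 1 to 10 kb, 5.47% from 10 to 50 kb, 5.73% from 50 to 100 kb, 6.61% from 100 to 200 kb and 5.83% from 200 to 500 kb. The last value has an interval of 4.79 to 7.03 and cannot be placed above or below its neighbours. Beyond 500 kb 14 of 192 peaks were called (7.29%, 4.04 to 11.9). The held-out fold was 2.20 from 100 to 200 kb, 2.10 from 200 to 500 kb and 1.76 beyond. Close to the limit that defines distal peaks, 5.38% were called from 90 to 100 kb and 6.33% from 100 to 110 kb, and the intervals overlapped (4.32 to 6.60 and 5.03 to 7.83). The held-out fold was 2.06 and 2.23 in these bins, higher beyond the limit in both directions (1.99 and 2.17, 2.12 and 2.30), and 2.03 over the whole range from 50 to 100 kb.

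**Figure D1:**
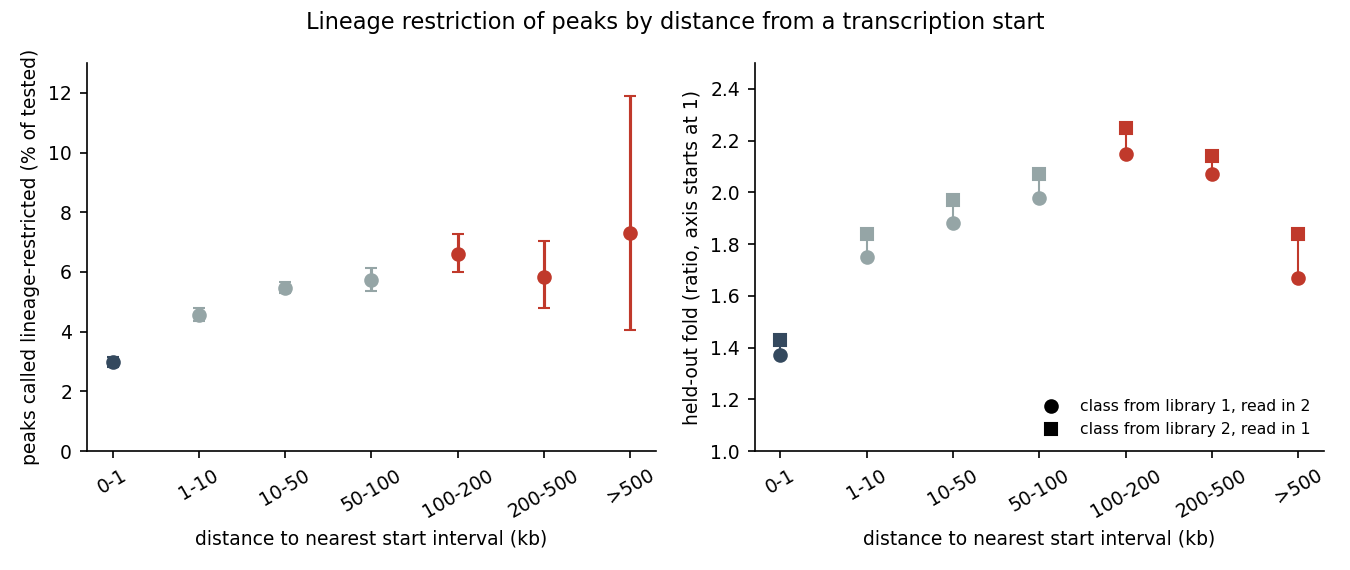
Share of tested peaks called lineage-restricted (left, percent, bars are 95% Clopper-Pearson intervals) and held-out fold (right, circles for the class from library 1 and squares for the class from library 2) by distance in kb to the nearest start interval. Both measures are lowest within 1 kb (2.98% and 1.40) and the fold is highest from 100 to 200 kb (2.20).

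The level of a peak and its base composition differ between the sets, so peaks of like level and of like CpG content were compared. Distal peaks had a median level of 1.30 CPM and start-proximal peaks 5.09 CPM. In 10 bins of equal numbers of all tested peaks by level, the share called was higher for distal peaks in 10 of 10, as was the held-out fold in both directions. In bins 1 to 9 the fold ran from 1.98 to 2.37 for distal and from 1.65 to 2.02 for start-proximal peaks. At like level the gap was thus narrower than over all tested peaks. In the fifth bin, from 2.04 to 2.64 CPM, 8.59% of 873 distal and 5.62% of 2368 start-proximal peaks were called. In the highest bin only 2 of 127 distal peaks were called (1.57%), beside 17 of 11088 start-proximal peaks (0.153%). Weighted to the levels of the distal peaks, 3.93% of start-proximal peaks would be called.

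**Figure D2:**
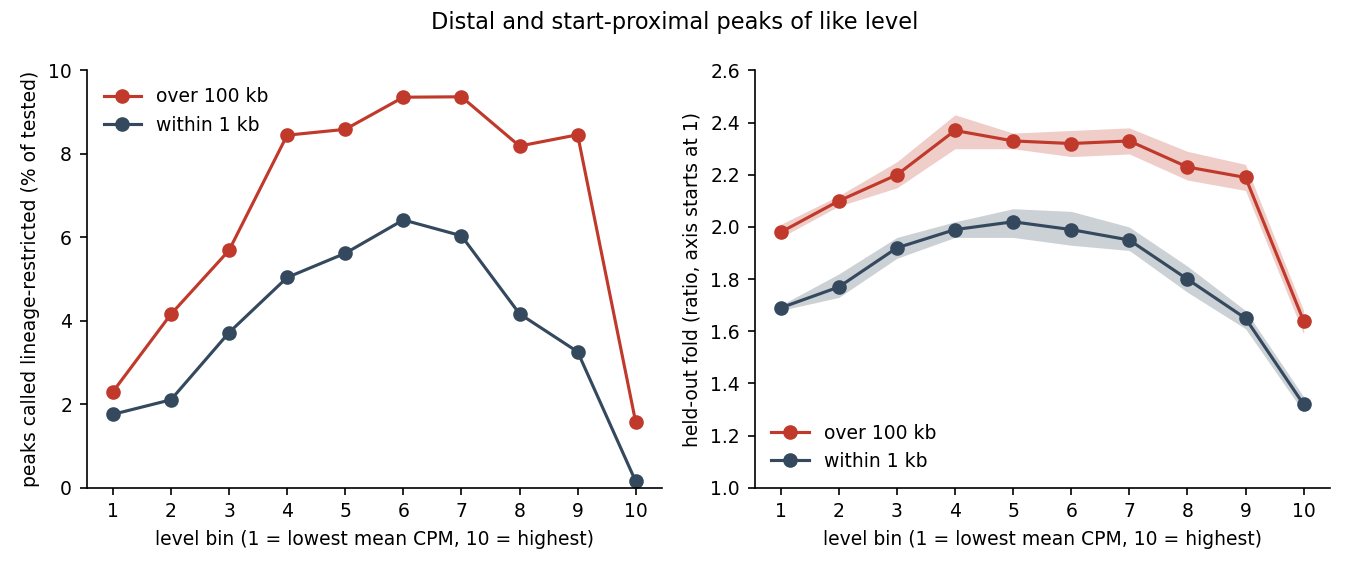
Share called (left, percent of tested peaks) and held-out fold (right, shading spans the 2 directions) of distal peaks (over 100 kb, red) and start-proximal peaks (within 1 kb, dark) in 10 bins of mean level. The red points are above the dark points in every bin, and both fall in bin 10, where held-out folds are 1.64 and 1.32.

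The gap between the sets was narrower among CpG-poor peaks. In the central 300 bases, distal peaks held a mean of 3.33 CpG and a median GC content of 46.0%, and start-proximal peaks 13.6 CpG and 53.7%. Of start-proximal peaks, 40.6% held over 10 CpG, and of 15075 of these tested only 30 were called (0.199%). Among peaks with at most 5 CpG, a choice made after the values were seen, 6.63% of distal and 5.33% of start-proximal peaks were called, with held-out folds of 2.28 and 1.99. Both measures stayed higher for distal peaks in 10 of 10 level bins of these CpG-poor peaks. By chromosome the held-out fold was higher for distal peaks on 20 of 20, from 1.82 (X) to 2.42 (3 and 7), and the share called on 19 of 20, with chromosome 10 the exception at 2.62% of 229 distal and 3.53% of 1955 start-proximal peaks.

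Distal peaks inside and outside gene bodies did not differ beyond their intervals. Those in a protein-coding body were called in 6.62% of 3763 tested (5.84 to 7.46) and those outside every body in 6.20% of 4064 (5.48 to 6.99), with held-out folds of 2.19 and 2.13. Only 597 distal peaks (5.63%) overlapped an exon.

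Of the 521 called distal peaks, 241 (46.3%) were pro-B-like, 86 (16.5%) NeuP-like, 66 (12.7%) GMP-like, 53 (10.2%) LMPP-like, 40 (7.68%) MkP-like and 35 (6.72%) EryP-like. A peak open in 1 class passes the minimum of count pairs mainly through that class, so deep classes pass more easily. In library 2 the pro-B-like class held 6736908 peak counts and the LMPP-like class 1514829. The part of depth in the mix of classes was not tested. The HSC-like class had no called distal peak, no called start-proximal peak and 1 call among all 152866 peaks tested, so the lack of calls was not particular to distal peaks. The class was highest in both libraries at 347 distal peaks (4.30% of those tested, against 1.65% of start-proximal peaks). The mix differed from that of called start-proximal peaks, of which 42.7% were pro-B-like, 29.8% NeuP-like, 10.5% EryP-like, 8.17% GMP-like, 5.38% MkP-like and 3.55% LMPP-like. As a share of peaks tested, LMPP-like calls made up 0.657% of distal and 0.106% of start-proximal peaks, and NeuP-like calls 1.07% and 0.888%. Without the pro-B-like class, 3.78% of distal and 1.69% of start-proximal peaks were called.

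Called distal peaks were also partly open in the class next to theirs in blood development. The classes come from RNA, but the calls come from these levels, so the profile is a description. Peaks called EryP-like averaged 11.0 and 9.40 CPM in that class in libraries 1 and 2, and 4.44 and 4.03 CPM in the MkP-like class, the second highest at 25 of 35. MkP-like peaks averaged 12.9 and 12.6 CPM, with the EryP-like class second highest at 28 of 40. NeuP-like peaks averaged 18.3 and 15.9 CPM, with 6.28 and 7.09 CPM in the GMP-like class, which was second at 80 of 86. GMP-like peaks averaged 7.93 and 8.46 CPM, with 2.07 and 2.85 CPM in the NeuP-like class, which was second at 31 of 66 and the HSC-like class at 25. LMPP-like peaks averaged 11.0 and 12.1 CPM, and the HSC-like class was second at 44 of 53. Pro-B-like peaks averaged 13.6 and 12.7 CPM, and the LMPP-like class was second at 157 of 241.

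**Figure D3:**
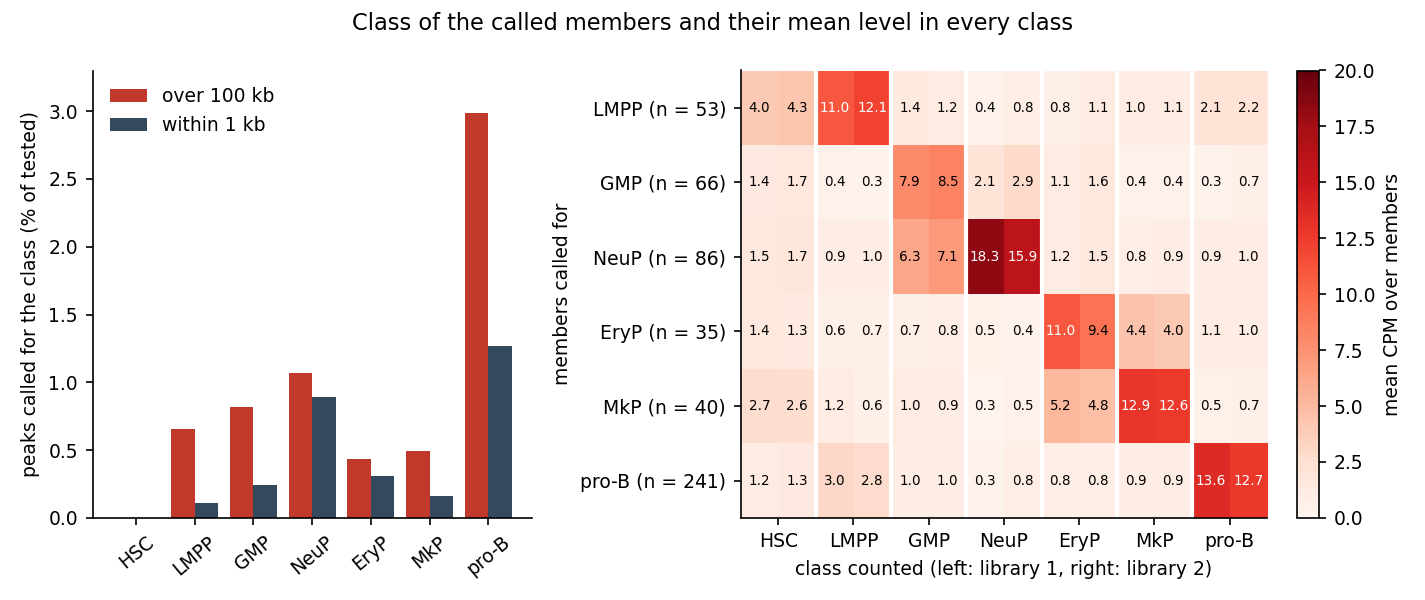
Left, share of tested distal (red) and start-proximal (dark) peaks called for each class in percent. Right, mean CPM of the distal peaks called for a class (rows) in every class and library (columns). Pro-B-like calls are the most frequent in both sets (2.99% and 1.27% of tested peaks), and off the diagonal the darkest cells are the GMP-like level of NeuP-like peaks (6.28 and 7.09 CPM).

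The share of all peak counts that fell in distal peaks ran from 1.49% to 2.92% over the 7 classes and both libraries. It was 2.92% and 2.84% in LMPP-like, 2.81% and 2.81% in HSC-like, 2.73% and 2.59% in GMP-like, 2.34% and 2.29% in MkP-like, 2.33% and 2.36% in pro-B-like, 2.14% and 2.23% in EryP-like and 1.49% and 1.81% in NeuP-like nuclei. The NeuP-like class was lowest of the 7 in both libraries. Of the smaller named classes, pro-NK/T-like nuclei had 1.69% and 1.60% and B-like nuclei 1.87% and 1.76%, both below the NeuP-like class in library 2. Among the 7, the NeuP-like class also had the highest share of counts within 1 kb of a start, 60.3% and 56.6%, against 48.8% to 55.3% in the other 6 classes, and the lowest median peak counts per nucleus of the 7 (10840 and 9242). The part of depth in this result was not tested.

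Called distal peaks of most lineages held the binding letters of a known factor of that lineage more often than other distal peaks. Short consensus letters were searched on both strands of the central 300 bases: AGATAA for the GATA factors, TTGCNNAA for the C/EBP factors, TGTGGT for RUNX, CCCNNGGG for EBF and CAGCTG for E proteins. The sequences that follow, chosen after the values were seen for holding the letters of their class, are examples and not a sample of the called peaks. Capitals mark the matches to GATA letters in the EryP-like, RUNX in the LMPP-like, CEBP in the GMP-like and NeuP-like, and EBF and E protein letters in the pro-B-like sequence (RefSeq, GRCm38.p6, forward strand).
chr3:79028123-79028422, EryP-like: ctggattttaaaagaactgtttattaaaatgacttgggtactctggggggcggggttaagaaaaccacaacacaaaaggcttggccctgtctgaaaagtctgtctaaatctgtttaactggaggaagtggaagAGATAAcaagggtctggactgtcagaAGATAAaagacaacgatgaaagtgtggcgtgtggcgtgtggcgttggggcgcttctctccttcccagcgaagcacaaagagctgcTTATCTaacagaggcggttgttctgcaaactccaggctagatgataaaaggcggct
chr9:64564369-64564668, LMPP-like: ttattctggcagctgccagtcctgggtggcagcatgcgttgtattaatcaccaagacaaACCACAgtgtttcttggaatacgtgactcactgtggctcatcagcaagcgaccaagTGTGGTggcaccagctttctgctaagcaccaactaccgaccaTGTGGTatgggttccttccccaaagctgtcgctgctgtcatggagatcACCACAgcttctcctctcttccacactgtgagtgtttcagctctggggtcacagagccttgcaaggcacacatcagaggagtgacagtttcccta
chr9:22945658-22945957, GMP-like: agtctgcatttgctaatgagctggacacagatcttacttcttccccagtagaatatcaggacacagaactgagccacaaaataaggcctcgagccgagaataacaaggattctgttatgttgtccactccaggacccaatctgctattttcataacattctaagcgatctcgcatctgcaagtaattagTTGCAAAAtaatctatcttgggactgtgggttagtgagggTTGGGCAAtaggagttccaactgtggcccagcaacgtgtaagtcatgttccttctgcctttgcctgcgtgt
chr2:117965825-117966124, NeuP-like: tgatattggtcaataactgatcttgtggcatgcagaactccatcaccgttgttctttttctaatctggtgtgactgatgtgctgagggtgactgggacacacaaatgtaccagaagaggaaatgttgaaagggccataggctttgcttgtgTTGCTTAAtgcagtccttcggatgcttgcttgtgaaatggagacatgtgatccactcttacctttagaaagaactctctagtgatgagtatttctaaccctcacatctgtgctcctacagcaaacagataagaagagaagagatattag
chr2:168438966-168439265, pro-B-like: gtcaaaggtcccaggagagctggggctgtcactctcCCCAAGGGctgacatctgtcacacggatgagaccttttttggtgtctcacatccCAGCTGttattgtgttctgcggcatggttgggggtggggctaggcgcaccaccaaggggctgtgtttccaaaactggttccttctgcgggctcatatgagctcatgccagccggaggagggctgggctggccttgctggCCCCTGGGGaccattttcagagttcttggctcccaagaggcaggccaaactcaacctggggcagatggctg

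The erythroid sequence holds 3 GATA matches, the LMPP-like 4 RUNX matches, the GMP-like 2 CEBP matches and the NeuP-like 1, and the pro-B-like 3 EBF matches, of which 2 overlap, and 1 E protein match. Over all called EryP-like distal peaks, 24 of 35 held AGATAA (68.6%, 50.7 to 83.1), and 19 of 40 MkP-like peaks did (47.5%, 31.5 to 63.9). The letters occurred in 16.4% of the 7552 tested distal peaks that were not called and in 13.3% of all peaks. CEBP letters were in 53.0% of GMP-like and 41.9% of NeuP-like distal peaks, against 17.7% of those not called and 14.2% of all peaks. RUNX letters were in 64.2% of LMPP-like distal peaks (49.8 to 76.9), beside 34.5% of those not called and 29.7% of all peaks. EBF letters were in 32.4% of pro-B-like distal peaks (26.5 to 38.7), against 6.73% of those not called and 10.4% of all peaks, and E protein letters in 37.8%, against 18.8% and 19.7%. E protein letters were as frequent in LMPP-like distal peaks (35.8%, 23.1 to 50.2), and RUNX letters were also in 47.0% of GMP-like ones (34.6 to 59.7), so neither was tied to a single class.

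Called start-proximal peaks held the same letters at like rates. GATA letters were in 55.0% (45.2 to 64.6) of EryP-like start-proximal peaks, CEBP letters in 52.9% of GMP-like, and EBF letters in 35.4% of pro-B-like ones, and each interval overlapped that of the distal peaks. The base rates differed. GATA, CEBP and EBF letters were in 9.52%, 11.2% and 15.2% of all start-proximal peaks. In all distal peaks they were in 16.5%, 18.2% and 7.01%, so like rates are not a like excess over the base rate. CTCF and PU.1 letters were less frequent in called than in other tested distal peaks. CTCF letters (CNAGGGGGC), those of the factor that anchors chromatin loops, were in 2 of 521 called distal peaks (0.384%), in 2.13% of tested distal peaks not called and in 3.29% of start-proximal peaks. PU.1 letters (GAGGAAGT), of the myeloid and lymphoid factor encoded by Spi1, were in 6.53% of called and 12.5% of tested but not called distal peaks. By class they were in 4.55% of GMP-like, 11.6% of NeuP-like and 5.39% of pro-B-like called distal peaks. A match is a string of letters and not a measured binding event.

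**Figure D4:**
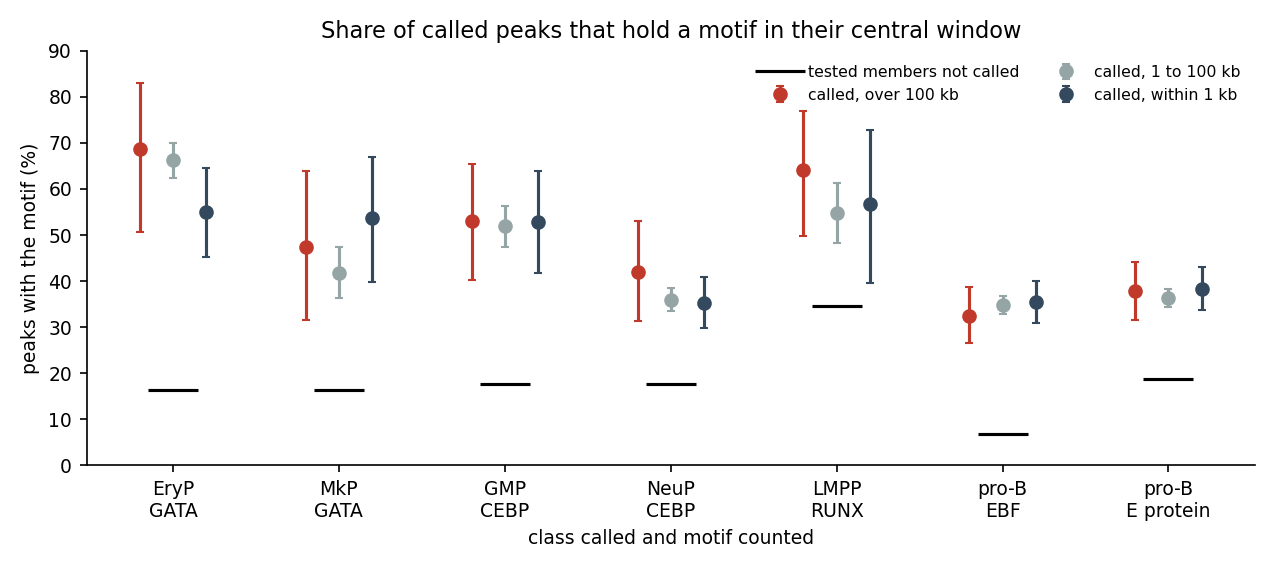
Percent of called peaks with the motif letters of their class in the central 300 bases, for peaks over 100 kb (red), 1 to 100 kb (grey) and within 1 kb (dark) of a start, with 95% Clopper-Pearson intervals, and for tested distal peaks not called (black line). Called peaks are above the black line for all 7 pairs of class and motif, which were picked from all pairs searched, and the intervals of the 3 distances overlap within each pair.

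By the rule for named peaks, the 3 with the largest lower ratio of the 2 libraries were taken in each class among those with at least 30 count pairs in that class and library. Among others, this gave 3 EryP-like, 3 GMP-like, 2 LMPP-like, 3 NeuP-like and 3 pro-B-like peaks. The central sequences of the highest peak of each of these classes are given as the choice of that rule, which did not use sequence, with any of the 10 searched motifs in capitals.
chr9:64533600-64533899, EryP-like: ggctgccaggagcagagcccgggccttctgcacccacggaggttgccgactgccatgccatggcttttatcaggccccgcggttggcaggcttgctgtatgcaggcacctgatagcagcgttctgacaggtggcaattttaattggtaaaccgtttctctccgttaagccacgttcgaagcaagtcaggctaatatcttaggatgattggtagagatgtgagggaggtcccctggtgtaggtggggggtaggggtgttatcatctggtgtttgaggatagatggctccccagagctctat
chr15:62181513-62181812, LMPP-like: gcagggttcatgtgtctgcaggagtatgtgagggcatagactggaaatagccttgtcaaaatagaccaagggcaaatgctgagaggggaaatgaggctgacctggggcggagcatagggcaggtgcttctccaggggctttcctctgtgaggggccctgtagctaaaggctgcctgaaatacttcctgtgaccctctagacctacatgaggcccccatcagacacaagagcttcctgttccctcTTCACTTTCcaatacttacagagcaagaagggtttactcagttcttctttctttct
chr2:139919802-139920101, GMP-like: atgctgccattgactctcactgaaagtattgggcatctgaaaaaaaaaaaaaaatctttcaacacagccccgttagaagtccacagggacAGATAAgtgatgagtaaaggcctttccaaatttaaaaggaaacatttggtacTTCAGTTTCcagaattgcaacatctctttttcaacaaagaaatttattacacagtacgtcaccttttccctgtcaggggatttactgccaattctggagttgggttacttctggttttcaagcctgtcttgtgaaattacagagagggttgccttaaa
chr2:117930985-117931284, NeuP-like: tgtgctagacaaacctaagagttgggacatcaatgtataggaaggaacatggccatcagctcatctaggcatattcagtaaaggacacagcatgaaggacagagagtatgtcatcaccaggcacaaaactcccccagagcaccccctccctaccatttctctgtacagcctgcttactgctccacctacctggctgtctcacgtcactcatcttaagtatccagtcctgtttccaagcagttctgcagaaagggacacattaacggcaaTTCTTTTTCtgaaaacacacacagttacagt
chr7:122817546-122817845, pro-B-like: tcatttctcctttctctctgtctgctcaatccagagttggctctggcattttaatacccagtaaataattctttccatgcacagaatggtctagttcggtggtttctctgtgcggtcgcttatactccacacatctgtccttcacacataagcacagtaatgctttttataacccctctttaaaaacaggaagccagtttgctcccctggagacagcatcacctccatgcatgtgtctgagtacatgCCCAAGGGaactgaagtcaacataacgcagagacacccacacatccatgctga

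These windows hold no searched motif in the EryP-like peak, IRF letters (GAAANNGAA) in the LMPP-like and NeuP-like, GATA and IRF letters in the GMP-like and EBF letters in the pro-B-like peak. No match says only that these letters are not in the window.

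The highest EryP-like peak (chr9:64533298-64534201) lay in an intron of Megf11, a gene for a cell surface protein with EGF repeats, 148 kb from the nearest start. It had 18.2 CPM in library 1 (Poisson interval 14.4 to 22.9) and 12.3 CPM in library 2 (8.99 to 16.9) in EryP-like nuclei. MkP-like nuclei had 2.54 and 3.41 CPM and the other 5 classes 0.412 to 1.66 CPM, so EryP-like nuclei stood alone among the 7 classes. Megf11 itself gave only 18 UMIs in the 7 classes. An LMPP-like peak, chr9:64564066-64564972, lay in the body of the same gene. It had 31.0 and 39.6 CPM in LMPP-like, 16.6 and 18.4 CPM in HSC-like and at most 8.52 CPM in other nuclei. Over all kept nuclei it had 1434 count pairs, and most lay outside the 7 classes. Distal peaks within 1 gene body with few RNA molecules were thus open in different lineages.

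The second EryP-like peak (chr3:79027819-79028726), whose 3 GATA matches are shown above, was outside gene bodies and 116 kb from Rapgef2, which encodes an activator of Rap proteins. It had 26.1 and 20.2 CPM in EryP-like and 11.8 and 12.4 CPM in MkP-like nuclei, and was at 0 in NeuP-like nuclei of both libraries. RNA of Rapgef2 did not follow it, at 79.1 CPM in EryP-like, 75.3 CPM in MkP-like and 61.3 to 124 CPM in the other classes.

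The first GMP-like peak (chr2:139919497-139920406) lay in an intron of Tasp1, which encodes the protease that cleaves MLL proteins, and had 6.29 and 10.7 CPM in GMP-like nuclei and at most 1.31 CPM elsewhere. The second (chr9:22945372-22946243) was 277 kb from Bmper, a gene for a secreted BMP regulator, with 11.4 and 8.62 CPM in GMP-like and at most 1.32 CPM in other nuclei. NeuP-like nuclei had little of either, at 0 and 0.576 CPM for the first and 1.32 and 0 CPM for the second. Over all kept nuclei the first had 440 count pairs and the second 520, and most of these lay outside the 7 classes. Both peaks were thus restricted to GMP-like nuclei only among the 7 classes.

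**Figure D5:**
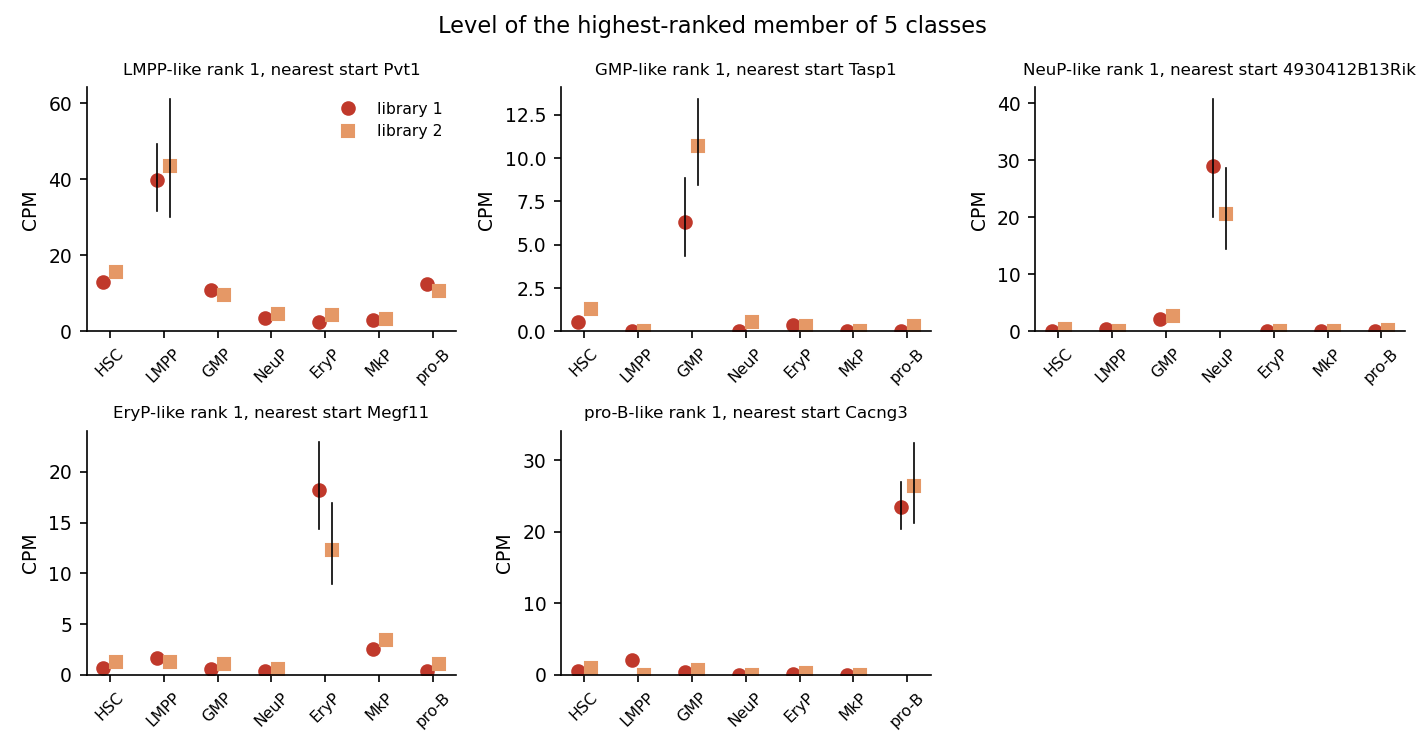
CPM of the highest-ranked distal peak of each of 5 classes in all 7 classes, circles for library 1 and squares for library 2, with 95% Poisson intervals as lines at the class of the call. Each peak is highest in the same class in both libraries, and the LMPP-like peak near Pvt1 also has 13.1 and 15.7 CPM in HSC-like nuclei.

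Called distal peaks close to each other mostly shared their class. Of 52 pairs of adjacent called distal peaks less than 10 kb apart, 48 (92.3%, 81.5 to 97.9) shared their class, against 54.0% of 63 pairs from 10 to 50 kb apart, 46.8% of 62 from 50 to 250 kb and 24.4% of 271 over 1000 kb apart. For peaks on different chromosomes the share was 27.6%. With peaks up to 50 kb apart joined, the 521 formed 406 groups, of which 19 held 3 or more and 323 were single peaks. The genes named beside the groups of 4 or more were picked after the values were seen, from those within 500 kb with at least 50 UMIs.

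The largest group held 7 pro-B-like peaks over 81.9 kb in the body of Ebf1, the factor that commits cells to the B lineage, 252 kb or more from its start. The one with the largest ratio (chr11:44950106-44950989) had 29.2 and 31.8 CPM in pro-B-like, 4.26 and 1.98 CPM in LMPP-like and at most 0.955 CPM in other nuclei. The other 6 had 5.53 to 30.4 CPM in pro-B-like nuclei of library 1. Ebf1 RNA was 3636 CPM in pro-B-like, 664 CPM in LMPP-like and 24.5 to 64.5 CPM in other nuclei. Ebf1 is a marker that named the pro-B-like class and is among its 10 leading genes. Its highest level in that class therefore came with the naming and is no separate evidence. Rnf145, which encodes a ubiquitin ligase and is the other gene there with 50 UMIs, had 38.6 CPM in pro-B-like and 13.9 to 35.6 CPM in other nuclei.

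Another 5 pro-B-like peaks lay within 10.1 kb on chromosome 3, outside gene bodies and 122 kb from Foxo1, a factor needed for early B cell development. The highest of these (chr3:52395914-52396732) had 37.9 and 44.7 CPM in pro-B-like nuclei and a mean of 3.54 and 4.53 CPM in the other 6 classes. A sixth pro-B-like peak, 370 kb from Foxo1, had 50.4 and 48.4 CPM. Foxo1 RNA was 204 CPM in pro-B-like, 87.4 CPM in LMPP-like and 8.07 to 15.4 CPM in other nuclei. Maml3, which encodes a Notch coactivator and is the other gene with 50 UMIs near these peaks, had its highest RNA in LMPP-like nuclei, at 1270 CPM against 406 CPM in pro-B-like. On chromosome 6, 4 pro-B-like peaks spanned 17.5 kb between genes, and the nearby genes Bcat1 and Lrmp had their highest RNA in pro-B-like nuclei. Lrmp, which encodes a membrane protein of lymphoid cells, had 551 CPM there and 41.5 to 145 CPM elsewhere, and Bcat1, which encodes an enzyme that breaks down branched-chain amino acids, had 46.3 CPM there and 0.659 to 4.18 CPM elsewhere.

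The 5 NeuP-like peaks of a 52.5 kb stretch of chromosome 2, in the noncoding gene Gm13986, were 134 kb from Thbs1, which encodes the secreted protein thrombospondin 1. One of them (chr2:117930710-117931560) had 29.0 and 20.5 CPM in NeuP-like, 2.19 and 2.69 CPM in GMP-like and at most 0.473 CPM in other nuclei. Its neighbour (chr2:117965519-117966431), which holds CEBP letters, had 36.9 and 33.7 CPM in NeuP-like and 4.86 and 9.26 CPM in GMP-like nuclei. Thbs1 RNA was 173 CPM in NeuP-like and at most 6.28 CPM in other nuclei, and GMP-like nuclei, where both peaks were partly open, had 0 of its 117 UMIs. The classes were formed on RNA, and Thbs1 is among the leading genes of the NeuP-like cluster. Its highest level in that class therefore came with the clustering and is no separate evidence. The other gene there with 50 UMIs, Eif2ak4, which encodes a kinase that senses amino acid shortage, went the other way, with 4.84 CPM in NeuP-like and 43.6 to 74.7 CPM in other nuclei.

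Around 2 further pro-B-like groups RNA mostly had its highest level elsewhere. Beside 5 peaks over 102 kb of chromosome 9 in Dscaml1, a cell adhesion gene, 2 of 8 genes with 50 UMIs within 500 kb were highest in pro-B-like nuclei. Beside 4 peaks over 20.2 kb of chromosome 11 in the noncoding gene 2610035D17Rik, that gene was the 1 with 50 UMIs, and its RNA was highest in LMPP-like nuclei (42.9 CPM, against 10.4 CPM in pro-B-like).

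A group of 4 on chromosome 15 mixed lineages. It spanned 94.1 kb of Pvt1, the noncoding gene beside the growth regulator Myc, at 171 to 264 kb from the start of Myc. The LMPP-like peak (chr15:62181212-62182113) had 39.7 and 43.6 CPM in LMPP-like, 13.1 and 15.7 CPM in HSC-like and 12.6 and 10.7 CPM in pro-B-like nuclei. Over all kept nuclei it had 1914 count pairs, 84.0 and 33.0 of them in LMPP-like nuclei, and most lay outside the 7 classes. The 2 EryP-like peaks had 7.82 and 5.05 CPM and 7.58 and 6.83 CPM in EryP-like nuclei, and the NeuP-like peak 7.03 and 14.4 CPM in its class. Myc RNA ran from 22.3 CPM (pro-B-like) to 37.7 CPM (MkP-like). Pvt1 RNA, the other with 50 UMIs, was highest in EryP-like nuclei, the class of 2 of the 4 peaks, at 37.6 CPM, lay between 14.4 and 25.1 CPM in 5 classes and was 1.61 CPM in NeuP-like nuclei, the class of another of the 4.

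Within 1 Mb of 40 blood transcription factor and receptor genes, 568 distal peaks were found around 32 of the genes. Of 462 tested, 38 were called (8.23%), with a held-out fold of 2.35, beside 6.45% and 2.16 for all distal peaks. Ebf1 had 7 called peaks of 27 tested, Foxo1 6 of 17, Myc 4 of 38, and Runx1 and Sox4 3 each. The share for the list leans on the Ebf1 and Foxo1 windows, and no excess near the other listed genes is shown. Runx1, a factor of stem and lymphoid cells, had 60 distal peaks in its window, more than any other listed gene, and the 3 called were pro-B-like (2) and MkP-like (1). The MkP-like one had only 11.0 and 5.00 count pairs in its class in libraries 1 and 2. Windows of Satb1 and Tcf7, both factors of lymphoid cells, held 30 and 29 tested distal peaks and none called, numbers too small to set this apart from the 6.45% called overall. No distal peak lay within 1 Mb of 8 genes, among them Gata1, Gata2, Spi1 and Lmo2.

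After that of Ebf1, the largest ratios near listed genes were also of pro-B-like peaks. A peak 750 kb from Cebpb, a myeloid factor (chr2:168438658-168439574), had 95.6 and 76.6 CPM in pro-B-like, 22.2 and 16.5 CPM in LMPP-like and at most 4.90 CPM in other nuclei, and it holds the EBF letters shown above. A peak 748 kb from Zeb2, a repressor used in several blood lineages (chr2:45865771-45866669) had 9.24 and 7.87 CPM in pro-B-like nuclei and was at 0 in LMPP-like, NeuP-like and EryP-like nuclei of both libraries. At such distances many genes lie closer, and which gene a peak acts on was not measured.

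Over all called distal peaks the nearest gene seldom had its RNA highest in the same class. This held for 36 of 180 called distal peaks whose nearest gene had at least 50 UMIs (interval 14.4% to 26.6%), against 222 of 596 called start-proximal peaks (37.2%, 33.4 to 41.3) and 28.9% of 2314 called peaks from 1 to 100 kb. The median correlation over the 7 classes between peak level and RNA of that gene was 0.17 for called distal and 0.41 for called start-proximal peaks, which share the same nuclei. Over all tested peaks with such a gene the order was the reverse, with a median of 0.25 for 2922 distal and 0.17 for 19064 start-proximal peaks. For the gene whose body holds the distal peak, 43 of 175 (24.6%) had their RNA highest in the class of the peak. What share unrelated genes would give was not tested.

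The 3 distal peaks with most counts were not lineage-restricted. The first (chr4:80003610-80005270), overlapping an exon of the annotated gene Gm11410, took 0.636% of all counts in distal peaks and ranged from 95.4 to 230 CPM over the 7 classes in library 1 and from 123 to 294 CPM in library 2. The second (chrX:87237938-87238834), in Il1rapl1, ranged from 39.6 to 101 CPM, and 73.7% of its central window is marked as repeat. The third (chr2:5378857-5379749), in Camk1d, ranged from 40.4 to 88.0 CPM. In each of the 3 the highest class differed between the libraries.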

How the data were processed

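Per the labels and the methods of the study, the authors aligned reads to GRCm38 (mm10) with Cell Ranger ARC 2.0.0 and deposited raw counts, UMIs for 32272 gene rows and transposition counts for 174339 peak rows over 18961 barcodes, without normalization. Peaks were called once for the whole matrix.

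The deposited counts were summed here per class and library and divided by all peak counts (CPM). Depth after filtering was 118239764 and 128699726 peak counts in libraries 1 and 2, with medians of 19471 and 16284 per nucleus. RNA was integrated between libraries with anchors and clustered on 30 components at resolution 0.8 (Seurat 5.3.0, R 4.3.3). A cluster was named when at least 3 markers of a class were raised (log2 ratio and mean of at least 1), at least 1 was among its 10 leading genes, and no other class had more there. A cluster of 398 nuclei with 9 pro-B markers raised had none there and stayed unnamed. No doublet caller was run, and doublets were limited only by the upper count limit. Count pairs are counts divided by 2, as 82.5% of peak entries were even. With 1 sample per group no test was made, and intervals (Clopper-Pearson, Poisson) cover counting error only. Distances run from the peak edge to the start interval. Sequence came from RefSeq GRCm38.p6, gene bodies from GENCODE M21, which matched 99.8% of gene rows on chromosomes 1 to 19 and X. The named peaks were the 3 highest per class with at least 30 count pairs, the 3 with most counts, and the 3 highest within 1 Mb of a list of 40 genes. Some of the peaks and genes these rules select are not reported here. The distance rule, lists, classes and thresholds were chosen with earlier results of these data known. In total, 21 alternatives were tried, 5 of them chosen after the data were seen.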

Additional observations from a re-analysis of the deposited data

Results flagged for a closer look

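Nuclei of 5 named classes were too few in at least 1 library to enter the comparisons, and their distal peaks were examined over both libraries together. Peaks counted here had at least 20 count pairs in the class and at least 4 times the mean of the 7 classes. In 122 cDCP-like (dendritic) nuclei 55 of 146 distal peaks met this. It held for 36 of 118 distal peaks in 169 pro-NK/T-like nuclei, for 28 of 100 in 207 B-like nuclei, for 19 of 109 in 118 cMoP-like (monocyte) nuclei and for 9 of 23 in 52 pDCP-like nuclei, of which 8 were from library 2. A minimum of 20 pairs in a small class admits mainly its strongest distal peaks, so these shares are a description and cannot be set beside those of start-proximal peaks or of the 7 classes.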

How the results depend on the processing

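Both the share called and the held-out fold were higher for distal than for start-proximal peaks under 21 of 21 alternatives, and 55 of the 84 recomputed values stayed within 1.5 times the share or between the 2 directions of the fold. With a log2 ratio of 1 as the threshold 29.2% of distal and 15.8% of start-proximal peaks were called, and with a pseudocount of 2 CPM 1.94% and 1.07%. A pseudocount of 0.1 CPM gave 10.2% of distal peaks. A minimum of 100 count pairs gave 1.57% of start-proximal peaks and folds of 2.01 (distal) and 1.37. Requiring 500 genes left 4 classes and gave folds of 1.92 and 1.23, broad lineages 2.10 and 1.27, and CPM over start-proximal peaks 1.32 for those peaks. The distal fold was 2.07 over 50 kb, 2.05 over 200 kb, 2.42 at resolution 0.4, 2.41 with no correction between libraries and 2.28 with limits on halved counts. Some alternatives were chosen after seeing the data. Classes with at least 50 nuclei per library gave 10.4% and 4.97% called and a distal fold of 2.58. Leaving out the pro-B-like class gave 3.78% and 1.69% and a distal fold of 1.92, and leaving out the NeuP-like class folds of 1.97 and 1.25. Joining the unnamed cluster with pro-B markers to the pro-B-like class gave 6.79% and 3.06% and folds of 2.18 and 1.40. Among peaks with at most 5 CpG, 5.33% of start-proximal peaks were called and the folds were 2.28 and 1.99. Where classes or peaks were dropped the sets compared also changed, and for the other shifts the cause was not tested. Distal peaks had a median of 39.5 and 39.0 count pairs per library, against 150 and 147 at starts, which limits ratios at single peaks, and peaks under 20 pairs were not tested. No paired analysis was possible because the result comes from no test and the libraries carry no group.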
